A study of Mus musculus with 9 samples.

Results

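Stab1, Stab2, Clec4g, Lyve1, Oit3, Dnase1l3, Mrc1 and Gpr182 are genes commonly used to mark liver sinusoidal endothelium. They were taken from the deposited table by gene symbol, 8 of the 32761 genes listed, and each symbol matched 1 gene. Levels are FPKM, in which fragments are divided by the length of the transcript and by the number mapped in the library, so that levels of genes of different length can be set side by side.

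RNA was sequenced from 9 tumours, 3 in each of 3 groups, harvested on day 14 from mice bearing liver tumours of Hepa1-6-luc, a mouse hepatoma line that carries luciferase. No treatment is given in the labels for the Control mice. Lenvatinib+anti-PD1 mice received free lenvatinib, an inhibitor of VEGF and FGF receptor kinases, with an antibody against PD1, an inhibitory receptor of T cells. Co+Len@OVA+anti-PD1 mice received a drug-loaded nanocluster at 2 mg/mL with the same antibody. Nanocluster or free drug was injected every 3 days and 50 μg of antibody every 4 days. Co is not explained in the labels, and no sequenced group had the drug or the antibody alone, so the parts of a treatment cannot be told apart. Pieces of whole tumour were used, and the 2 comparisons with Control share the same Control libraries.

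Liver sinusoids are lined by a fenestrated endothelium without an organised basement membrane. These cells clear waste macromolecules from portal blood with scavenger, hyaluronan and mannose receptors, a task they share with the macrophages of the sinusoid. In chronic liver disease and in hepatocellular carcinoma they can lose these receptors and gain genes of continuous capillaries, a change known as capillarisation. Lyve1, Stab1 and Gpr182 are also made by lymphatic endothelium, Mrc1, Stab1 and Lyve1 by macrophages, and Dnase1l3 by macrophages and dendritic cells, so a level in a tumour piece is not that of 1 cell type.

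Promoters of Stab1, Stab2 and Clec4g are shown because Stab1 was the member that rose in Co+Len@OVA+anti-PD1 tumours, while Stab2 and Clec4g had their lowest group means there. Each is the 250 bases before the annotated start, read 5′ to 3′ on the gene's strand, from RefSeq on GRCm38.p6. The table held 4 of the 8 members, these 3 and Mrc1. The intervals are chr14:31168642-31168891 on the minus strand for Stab1, chr10:87007943-87008192 on the minus strand for Stab2 and chr8:3720652-3720901 on the minus strand for Clec4g. The authors' build is not given in the sources used here. These intervals belong to the RefSeq table and not to the expression values. Capitals mark every match on either strand to 3 motifs, GATA (the core of GATA factor sites), TGCTGA (part of a MAF factor site) and GAGGAA (an ETS-type site).
Stab1: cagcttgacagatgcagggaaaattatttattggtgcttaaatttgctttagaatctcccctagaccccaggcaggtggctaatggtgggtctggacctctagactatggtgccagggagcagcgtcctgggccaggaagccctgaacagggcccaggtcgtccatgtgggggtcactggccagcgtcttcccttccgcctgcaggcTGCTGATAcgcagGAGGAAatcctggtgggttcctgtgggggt
Stab2: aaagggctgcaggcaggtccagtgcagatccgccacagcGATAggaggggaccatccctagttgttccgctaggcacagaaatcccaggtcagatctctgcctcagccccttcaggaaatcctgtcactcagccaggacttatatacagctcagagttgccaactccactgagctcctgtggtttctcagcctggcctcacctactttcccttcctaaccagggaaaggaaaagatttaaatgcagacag
Clec4g: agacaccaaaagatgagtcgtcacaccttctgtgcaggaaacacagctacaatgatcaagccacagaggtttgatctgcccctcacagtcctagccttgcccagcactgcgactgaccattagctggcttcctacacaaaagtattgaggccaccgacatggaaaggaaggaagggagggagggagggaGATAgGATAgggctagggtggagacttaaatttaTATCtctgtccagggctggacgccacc
GATA occurred 1 time in Stab1, 1 time in Stab2 and 3 times in Clec4g. TGCTGA and GAGGAA each occurred 1 time in Stab1, where TGCTGA overlaps the GATA match, and neither was found in the windows of Stab2 or Clec4g. Of 32851 promoters of the same table and window, 53.6% held GATA, 16.1% TGCTGA and 23.3% GAGGAA. These are matches of letters and describe the windows only.

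Column totals ranged from 332000 to 373000 FPKM, and 23575 to 26298 genes were above 0 in a library. Mitochondrially encoded genes took 11.1% to 13.2% of the total in Control, 16.3% to 17.9% in Lenvatinib+anti-PD1 and 12.3% to 12.8% in Co+Len@OVA+anti-PD1. Whole fragments could not be recovered from the FPKM, so the depth is unknown. Control replicate 1 stood apart from the other Control libraries. It was the lowest Control library by more than 2-fold for 952 genes, against 265 for Control replicate 2 and 27 for Control replicate 3. The other groups also held a library that stood apart. Co+Len@OVA+anti-PD1 replicate 2 was the lowest of its group in this way for 558 genes and Lenvatinib+anti-PD1 replicate 1 for 399. Library 3 of each group lay between libraries 1 and 2 for 386 of 399 genes that differed over 4-fold between those libraries in Control, 130 of 132 in Co+Len@OVA+anti-PD1 and 149 of 156 in the Lenvatinib+anti-PD1 group. It also lay between them in 21 of the 24 sets of a member and a group. The design gives 3 tumours per group, and p-values measure the spread between these libraries and are too small where a library is not independent of the others. Member calls are therefore also given from libraries 1 and 2 alone and without Control replicate 1. Ranges with each library left out in turn are given in the last section.

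Differences were tested with limma on log2(FPKM + 0.5), a scale that understates changes of low genes, over the 15353 genes whose mean level reached 0.5 FPKM. A gene passed at a Benjamini-Hochberg adjusted p under 0.05, and "rose" and "fell" are used only of genes that passed. Of the members, 7 met the minimum and were tested. Stab2, with a mean of 0.483 FPKM over the 9 libraries, did not, and its adjusted p-values come from a fit without the minimum.

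Stabilin-1 and stabilin-2, encoded by Stab1 and Stab2, are related scavenger receptors that bind modified lipoproteins, collagen propeptides and other waste, and stabilin-2 also clears hyaluronan. Stab1 (ENSMUSG00000042286) stood at 2.05, 4.59 and 3.54 FPKM in Control libraries 1, 2 and 3. The Lenvatinib+anti-PD1 libraries held 1.71, 3.18 and 2.45 FPKM, and the Co+Len@OVA+anti-PD1 libraries 10.9, 5.53 and 8.28 FPKM. Every Co+Len@OVA+anti-PD1 library was above every other library, and the other groups overlapped. Group means were 3.39 ± 1.28, 2.45 ± 0.735 and 8.23 ± 2.68 FPKM in the same order (SD, n = 3 in this and all later means). Stab1 rose in Co+Len@OVA+anti-PD1 against Control, 2.43-fold by the means, with a log2 fold change of 1.18 ± 0.32 (SE) and an adjusted p of 0.02647 in limma. It was also higher than in Lenvatinib+anti-PD1, 3.36-fold, with a log2 fold change of 1.55 ± 0.32 and an adjusted p of 0.01006. In a bulk sample, more cells of a type and more RNA per cell cannot be told apart. From libraries 1 and 2 alone the same log2 differences were 1.20 and 1.54, with limma adjusted p of 0.2414 and 0.206. Leaving out Control replicate 1 gave a difference from Control of 0.90 with an adjusted p of 0.05808.

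Stab2 (ENSMUSG00000035459) was lowest where Stab1 was highest. Its level was 0.370, 1.33 and 0.852 FPKM in Control, 0.438, 0.553 and 0.540 in Lenvatinib+anti-PD1 and 0.120, 0.0702 and 0.0825 in Co+Len@OVA+anti-PD1. All 3 Co+Len@OVA+anti-PD1 libraries were below all 6 others, while the Lenvatinib+anti-PD1 libraries lay inside the Control range. By the means Stab2 was 9.32-fold lower in Co+Len@OVA+anti-PD1 than in Control, 0.0910 ± 0.0262 against 0.849 ± 0.478 FPKM, and 5.61-fold lower than in Lenvatinib+anti-PD1 at 0.511 ± 0.0633 FPKM. In the fit without a minimum level the log2 differences were -1.13 ± 0.24 (adjusted p = 0.02156 in limma) and -0.77 ± 0.24 (adjusted p = 0.08224). From libraries 1 and 2 alone they were -1.08 and -0.74 (limma adjusted p = 0.3559 and 0.5474). Without Control replicate 1 they were -1.41 and -0.77 (limma adjusted p = 0.002319 and 0.008916), and Lenvatinib+anti-PD1 then differed from Control by -0.64 (adjusted p = 0.0392), against -0.35 (adjusted p = 0.491) with all libraries. The call against Control was lost without Control replicate 3 or without Co+Len@OVA+anti-PD1 replicate 1 or 3 (limma adjusted p = 0.07338, 0.05257 and 0.07912). Over its longest transcript in GENCODE, 8228 bases, the Co+Len@OVA+anti-PD1 values correspond to between 0.58 and 0.99 fragments per 1000000 mapped. The number of fragments behind these low values is not known, as the depth is unknown.

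Lyve1 and Mrc1 are endocytic receptors, the first for hyaluronan and the second, CD206, for mannose-bearing glycoproteins and collagen fragments. Lyve1 (ENSMUSG00000030787) stood at 1.19, 7.55 and 5.56 FPKM in Control, at 1.36, 3.17 and 2.02 in Lenvatinib+anti-PD1 and at 1.77, 0.644 and 1.15 in Co+Len@OVA+anti-PD1. Control replicates 2 and 3 were the highest of the 9 libraries, but Control replicate 1 lay below the Lenvatinib+anti-PD1 libraries and within the Co+Len@OVA+anti-PD1 range. Means were 4.76 ± 3.25, 2.18 ± 0.917 and 1.19 ± 0.563 FPKM, and Lyve1 passed in no comparison. Its log2 difference of Co+Len@OVA+anti-PD1 from Control was -1.42 ± 0.57, with a 95% confidence interval from -2.74 to -0.11 and a limma adjusted p of 0.08677. Without Control replicate 1 that difference was -2.11 (adjusted p = 0.005022 in limma), and that of Lenvatinib+anti-PD1 from Control was -1.44 (adjusted p = 0.02067).

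Mrc1 (ENSMUSG00000026712) was at 2.26, 18.0 and 12.5 FPKM in Control. It was at 2.35, 4.29 and 2.86 FPKM in Lenvatinib+anti-PD1 and at 12.7, 7.66 and 10.3 FPKM in Co+Len@OVA+anti-PD1. The treated groups did not overlap, and Control spanned both. By the means, 3.17 ± 1.00 and 10.2 ± 2.53 FPKM, Mrc1 was 3.23-fold higher in Co+Len@OVA+anti-PD1 than in Lenvatinib+anti-PD1, with a log2 difference of 1.56 ± 0.63 and a limma adjusted p of 0.09468. Against Control, at 10.9 ± 7.99 FPKM, the log2 differences were 0.27 ± 0.63 for Co+Len@OVA+anti-PD1 (adjusted p = 0.765) and -1.29 ± 0.63 for Lenvatinib+anti-PD1 (adjusted p = 0.1762). Their 95% intervals ran from -1.19 to 1.73 and from -2.74 to 0.17, so the former holds changes of over 2-fold in either direction. Without Control replicate 1 these differences were -0.56 (limma adjusted p = 0.1678) and -2.12 (adjusted p = 0.001835), so the first changed sign and the second passed.

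Clec4g encodes LSECtin, a C-type lectin of sinusoidal endothelium that binds viral glycoproteins and activated T cells. Clec4g (ENSMUSG00000074491) was at 0.0494, 0.948 and 0.627 FPKM in Control, at 1.14, 1.02 and 1.21 in Lenvatinib+anti-PD1 and at 0.0435, 0.0530 and 0.0343 in Co+Len@OVA+anti-PD1. The Lenvatinib+anti-PD1 libraries were the highest of the 9, and Control replicate 1 fell inside the narrow range of the Co+Len@OVA+anti-PD1 libraries. Clec4g was lower in Co+Len@OVA+anti-PD1 than in Lenvatinib+anti-PD1, 25.8-fold by the means of 0.0436 ± 0.00935 and 1.12 ± 0.0970 FPKM, with a log2 fold change of -1.58 ± 0.32 and a limma adjusted p of 0.009318. The log2 value is far smaller than the ratio of the means because the Co+Len@OVA+anti-PD1 levels are far under the 0.5 FPKM added before the logarithm. Against the Control mean of 0.541 ± 0.455 FPKM the log2 differences were -0.83 ± 0.32 for Co+Len@OVA+anti-PD1 (adjusted p = 0.08063) and 0.75 ± 0.32 for Lenvatinib+anti-PD1 (adjusted p = 0.1283). From libraries 1 and 2 alone the difference between the treatments was -1.52 with an adjusted p of 0.2136 in limma. Without Control replicate 1 the limma adjusted p was 0.0002242, and the difference of Co+Len@OVA+anti-PD1 from Control was -1.23 (adjusted p = 0.002182). Over the longest transcript, 1442 bases, the Co+Len@OVA+anti-PD1 values correspond to between 0.049 and 0.076 fragments per 1000000 mapped and Control replicate 1 to 0.071, at which a few fragments decide the value.

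Gpr182, an atypical receptor of endothelium that takes up chemokines, and Oit3, a zona pellucida domain protein of the liver, followed each other closely. Gpr182 (ENSMUSG00000058396) stood at 0.202, 1.50 and 1.01 FPKM in Control, at 0.896, 1.03 and 0.979 in Lenvatinib+anti-PD1 and at 0.377, 0.307 and 0.332 in Co+Len@OVA+anti-PD1. Oit3 (ENSMUSG00000009654) stood at 0.171, 1.83 and 1.12 FPKM in Control, at 1.03, 0.679 and 0.868 in Lenvatinib+anti-PD1 and at 0.221, 0.177 and 0.302 in Co+Len@OVA+anti-PD1. For both genes the Co+Len@OVA+anti-PD1 libraries were below every Lenvatinib+anti-PD1 library and below Control replicates 2 and 3, and Control replicate 1 was the lowest of the 9. Between the treatments Gpr182 was 2.86-fold lower in Co+Len@OVA+anti-PD1 (0.339 ± 0.0357 against 0.968 ± 0.0663 FPKM) and Oit3 3.68-fold lower (0.234 ± 0.0636 against 0.860 ± 0.177 FPKM). Neither passed, with log2 differences of -0.81 ± 0.34 (limma adjusted p = 0.1019) and -0.89 ± 0.40 (adjusted p = 0.1261). From their Control means of 0.905 ± 0.656 and 1.04 ± 0.834 FPKM, the Co+Len@OVA+anti-PD1 differences were -0.62 ± 0.34 (adjusted p = 0.1848) and -0.90 ± 0.40 (adjusted p = 0.1161). With Control replicate 1 left out they were -1.05 (limma adjusted p = 0.003132) and -1.41 (adjusted p = 0.002905).

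Dnase1l3 encodes a secreted nuclease that degrades DNA in chromatin and microparticles. Dnase1l3 (ENSMUSG00000025279) was at 1.34, 10.0 and 7.39 FPKM in Control, at 6.10, 5.42 and 5.68 in Lenvatinib+anti-PD1 and at 11.4, 15.6 and 14.3 in Co+Len@OVA+anti-PD1. The Co+Len@OVA+anti-PD1 libraries were above all others, and the tight Lenvatinib+anti-PD1 libraries lay inside the Control range. Means were 6.25 ± 4.45, 5.73 ± 0.343 and 13.8 ± 2.19 FPKM. The level in Co+Len@OVA+anti-PD1 was 2.21-fold that of Control (log2 difference 1.41 ± 0.56, limma adjusted p = 0.08534) and 2.40-fold that of Lenvatinib+anti-PD1 (1.19 ± 0.56, adjusted p = 0.1382). Without Control replicate 1 it passed in both, with log2 differences of 0.64 (limma adjusted p = 0.02258) from Control and an adjusted p of 0.0006504 against Lenvatinib+anti-PD1.

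**Figure D1:**
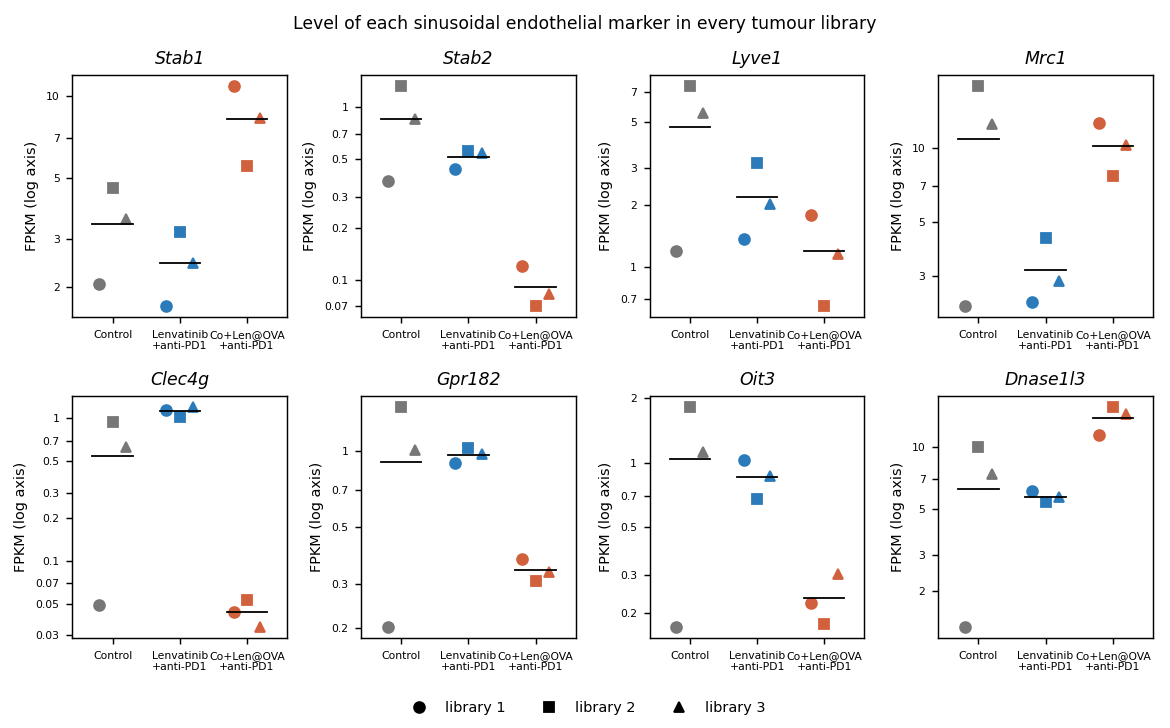
FPKM on a log axis of each of the 8 genes in all 9 tumour libraries, by group; circles, squares and triangles are libraries 1, 2 and 3, and the bar is the mean of 3. Stab1 and Dnase1l3 are highest and Stab2 lowest in all Co+Len@OVA+anti-PD1 libraries, and the circle of Control is the lowest Control library in each panel.

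Against Control, 1 of the 7 members tested passed in Co+Len@OVA+anti-PD1 tumours, Stab1, which rose. Of all genes tested, 33.6% passed in that comparison, 20.9% higher and 12.7% lower, so the members' share was below that background. The groups did not overlap for Stab1 and Dnase1l3 among the members tested, both higher, where 49.7% of all genes tested did not overlap, 32.4% higher and 17.3% lower. The median log2 difference over these 7 members was -0.62, against 0.13 over all genes tested. With median-of-ratios scaling the calls over all genes moved from 3209 higher and 1946 lower to 2060 higher and 2817 lower, while Stab1 still rose, by 1.04 on the log2 scale (limma adjusted p = 0.02959). When Control replicate 1 was left out, 5 members passed. Dnase1l3 was higher and Clec4g, Lyve1, Oit3 and Gpr182 lower, where 19% of genes were called higher and 12.7% lower. Without Control replicate 2 instead, limma passed 2 members, Stab1 and Dnase1l3, both higher, and 0 lower. Clec4g, Lyve1, Oit3 and Gpr182 then had limma adjusted p of 0.1897, 0.2034, 0.2815 and 0.4593. In that fit 3666 of the 15353 genes were called higher and 2104 lower, so the lower calls depended on which Control library was left out. From libraries 1 and 2 alone limma passed 0 members, with or without adjustment for multiple tests, and 0.521% of all genes passed.

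Lenvatinib+anti-PD1 tumours had 0 of the 7 members past the threshold in limma against Control. Clec4g was the 1 member with an unadjusted p under 0.05 in limma, and the 1 member tested whose groups did not overlap. Of all genes tested 23.7% passed, 13.8% higher and 9.87% lower, and 43.5% did not overlap, 26.1% of all genes higher and 17.4% lower. The members' median log2 difference was -0.01 against 0.05 over all genes. Stab1 at -0.37 (adjusted p = 0.4355), Oit3 at -0.01 (adjusted p = 0.987), Dnase1l3 at 0.22 (adjusted p = 0.8113) and Gpr182 at 0.19 (adjusted p = 0.7205) had 95% intervals that took in 0. Leaving out Control replicate 1 brought 3 members past the threshold, all lower in Lenvatinib+anti-PD1. They were Lyve1, Mrc1 and Dnase1l3, the last with a log2 difference of -0.55 (limma adjusted p = 0.03641) that had the opposite sign with all libraries. In that fit 15.5% of all genes were called higher and 17.4% lower. Libraries 1 and 2 alone gave 0 members in limma, adjusted or not, and 0.345% of all genes.

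Between the treatments, 2 of the 7 members passed, Stab1 higher and Clec4g lower in Co+Len@OVA+anti-PD1, where 29.4% of all genes passed, 17.3% higher and 12% lower. The groups did not overlap for 6 of the 7, Stab1, Dnase1l3 and Mrc1 higher and Clec4g, Oit3 and Gpr182 lower, against 54.8% of all genes, 34.3% higher and 20.4% lower. Stab2 was lower without overlap as well. Lyve1 was the exception, with overlapping groups and a log2 difference of -0.67 ± 0.57 (limma adjusted p = 0.3944). The median over the members tested was -0.67, against 0.07 over all genes. In the fit without Control replicate 1, whose spread also enters this comparison, 6 members passed, the 3 higher and the 3 lower just named, where 27.5% of genes were called higher and 15.4% lower. From libraries 1 and 2 alone 0 passed in limma, Stab1 and Clec4g had an unadjusted p under 0.05, and 2.38% of all genes passed. Median-of-ratios scaling moved the calls over all genes from 2657 higher and 1850 lower to 1991 higher and 2318 lower, and both member calls held.

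**Figure D2:**
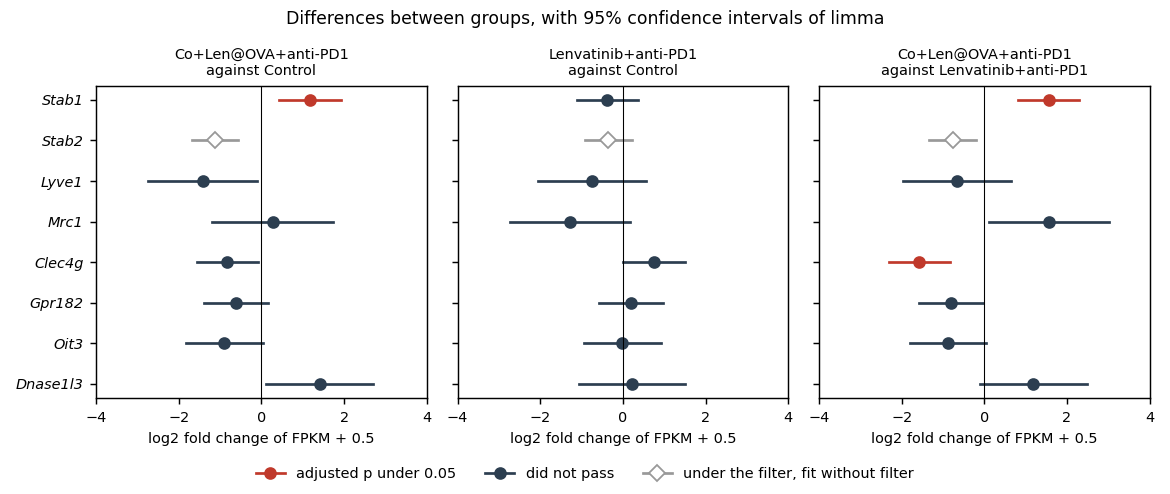
Difference of each gene between groups on the log2(FPKM + 0.5) scale with its 95% confidence interval from limma, in 3 panels for the 3 comparisons; red marks an adjusted p under 0.05, and the open diamond is Stab2 from the fit without a minimum level. Stab1 lies to the right in both comparisons of Co+Len@OVA+anti-PD1 at 1.18 and 1.55, and Clec4g to the left at -1.58 against Lenvatinib+anti-PD1.

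Control replicate 1 was the lowest and Control replicate 2 the highest Control library for all 8 members, by factors of 2.24 to 19.2 between them. The pan-endothelial list, 19 markers of endothelium of any bed such as Pecam1, Cdh5 and Tie1, moved in the same direction across these libraries. Its summed level was 73.0, 110 and 100 FPKM in Control, 88.5, 109 and 100 in Lenvatinib+anti-PD1 and 164, 113 and 140 in Co+Len@OVA+anti-PD1. Ecscr, the highest gene of the list, made up 49.2, 40.7 and 44.2 FPKM of the Control sums and ran the other way. The geometric mean of the list, which rests less on 1 gene, was 0.761, 2.62 and 2.08 FPKM in Control. Of the list's 17 genes tested, 4 rose in Co+Len@OVA+anti-PD1 against Control with a median log2 difference of 0.93, and 0 fell. Over all genes tested 20.9% rose, so this count is near the background. Sox18, an endothelial transcription factor, rose by 1.83 ± 0.51 (limma adjusted p = 0.02753) and Egfl7, a secreted vessel protein, by 1.14 ± 0.27 (adjusted p = 0.01601).

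The members were therefore also expressed as a ratio to the geometric mean FPKM of the pan-endothelial list in the same library, a scale chosen with the values known and given as a description. That geometric mean was 1.82 ± 0.955 FPKM in Control, 1.90 ± 0.648 in Lenvatinib+anti-PD1 and 3.65 ± 1.09 in Co+Len@OVA+anti-PD1. Stab2, Clec4g, Lyve1, Oit3 and Gpr182 then lay lower in every Co+Len@OVA+anti-PD1 library than in every library of both other groups. Stab2 was at 0.467 ± 0.0516 in Control, 0.284 ± 0.0647 in Lenvatinib+anti-PD1 and 0.0252 ± 0.00341 in Co+Len@OVA+anti-PD1, 18.5-fold lower than in Control. Control replicate 1, at 0.486, stood between the other Control libraries at 0.507 and 0.409. Lyve1 was at 2.37 ± 0.712, 1.13 ± 0.0910 and 0.313 ± 0.0616, so that all 3 groups were separate and in the order Control, Lenvatinib+anti-PD1, Co+Len@OVA+anti-PD1.

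Oit3 was 7.40-fold and Gpr182 4.55-fold lower than in Control on this ratio, with Co+Len@OVA+anti-PD1 means of 0.0659 ± 0.0164 and 0.0971 ± 0.0230 against 0.488 ± 0.242 and 0.442 ± 0.159. Clec4g was 18.4-fold lower than in Control and 49.1-fold lower than in Lenvatinib+anti-PD1, at 0.0132 ± 0.00702, 0.243 ± 0.157 and 0.648 ± 0.248. Its Co+Len@OVA+anti-PD1 levels of 0.0343 to 0.0530 FPKM, at which a few fragments decide the value, and the higher denominator there leave the size of these folds uncertain. Control replicate 1 remained the lowest Control library for Clec4g, at 0.0648 against 0.362 and 0.301, and for Lyve1, Oit3, Dnase1l3, Mrc1 and Gpr182, while for Stab1 it was the highest. Stab1 no longer set Co+Len@OVA+anti-PD1 apart from Control, at 2.24 ± 0.0909 and 2.05 ± 0.556, but was lower in Lenvatinib+anti-PD1 at 1.30 ± 0.0554 without overlap with either. Mrc1 was lowest in Lenvatinib+anti-PD1, 1.69 ± 0.156 against 5.29 ± 2.05 in Control and 2.84 ± 0.211 in Co+Len@OVA+anti-PD1. Dnase1l3 overlapped between all groups, at 3.05 ± 1.12, 3.32 ± 1.36 and 4.16 ± 1.96.

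Many genes besides the members were lower in Co+Len@OVA+anti-PD1 on this ratio, its denominator being higher there. Among the 15353 genes above the minimum, 33.1% were below every Control library in Co+Len@OVA+anti-PD1 and 34.6% below every Lenvatinib+anti-PD1 library, against 4 of the 7 members above it in each case. Stab1 and Mrc1 were above every Lenvatinib+anti-PD1 library, as were 3.97% of genes. Between Lenvatinib+anti-PD1 and Control fewer genes separated, 5.44% lower and 3.07% higher, against 3 members lower (Stab1, Lyve1 and Mrc1) and Clec4g higher, besides Stab2, which was lower. Limma on log2 values less the list's mean log2 level called Clec4g, Lyve1, Oit3 and Gpr182 lower in Co+Len@OVA+anti-PD1 than in Control, where 22.9% of all genes were called lower and the median over all genes was -0.68. The 4 values were -2.24 for Lyve1 (adjusted p = 1.285e-07 in limma), -1.71 for Oit3 (adjusted p = 0.001286), -1.64 for Clec4g (adjusted p = 0.003517) and -1.43 for Gpr182 (adjusted p = 0.008367), and Stab1 was at 0.36 (adjusted p = 0.4068). These p-values test a difference from 0, and the distance from the median over all genes was not tested. Subtracting 1 list level per library also gives every gene the same added error. Limma treats errors as independent between genes, so p-values and calls on this scale overstate the evidence from 3 libraries per group. The same 4 genes were called lower against Lenvatinib+anti-PD1, where 18.8% of all genes were. Mrc1 was called lower in Lenvatinib+anti-PD1 than in Control (-1.36, limma adjusted p = 0.01047), where 1.53% of all genes were. For genes far below 0.5 FPKM in both groups, such a log2 value mostly reads the list.

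**Figure D3:**
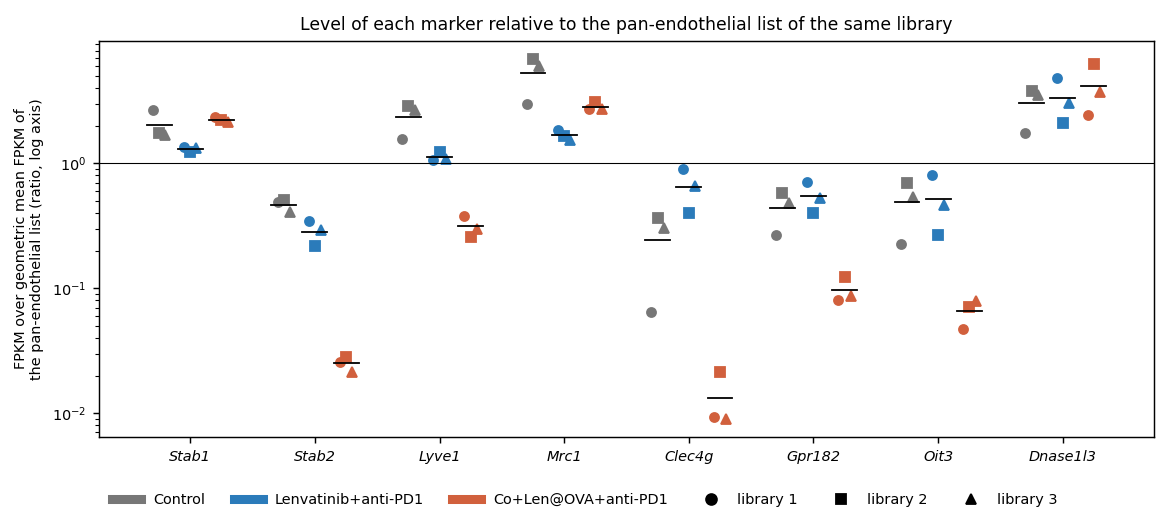
FPKM of each of the 8 genes divided by the geometric mean FPKM of the 19 pan-endothelial genes in the same library, on a log axis, with colours for groups, shapes for libraries and bars for means of 3. Stab2, Lyve1, Clec4g, Gpr182 and Oit3 are below all other libraries in the 3 Co+Len@OVA+anti-PD1 libraries, while Stab1 is near 2 in Control and in Co+Len@OVA+anti-PD1.

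Among 20 other genes of sinusoidal endothelium, 14 were tested and Wnt2, Wnt9b, Rspo3, F8, Bmp6 and Cd209b were below the minimum. Against Control, 0 rose and 2 fell in Co+Len@OVA+anti-PD1 (median log2 difference 0.16), and 0 rose and 5 fell in Lenvatinib+anti-PD1 (median -0.32). Over all genes tested, 12.7% fell in the former comparison and 9.87% in the latter. Gata4, a transcription factor that specifies sinusoidal endothelium and is also used by stellate cells and hepatoma cells, fell in both. It was at 6.59 ± 0.302 FPKM in Control, 5.10 ± 0.144 in Lenvatinib+anti-PD1 (-0.34 ± 0.07, limma adjusted p = 0.01103) and 4.61 ± 0.275 in Co+Len@OVA+anti-PD1 (-0.47 ± 0.07, adjusted p = 0.002258). Il1r1, the interleukin 1 receptor, also fell in both, from 6.44 ± 0.449 FPKM to 3.77 ± 0.204 and 4.48 ± 0.306.

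Fcgr2b, an Fc receptor that clears immune complexes in sinusoids and is also made by macrophages and B cells, had its lowest mean in Lenvatinib+anti-PD1, as Mrc1 did. It was at 15.4 ± 5.62 FPKM in Control, 6.63 ± 0.581 in Lenvatinib+anti-PD1 and 21.4 ± 2.84 in Co+Len@OVA+anti-PD1. It fell in Lenvatinib+anti-PD1 by 1.09 on the log2 scale (limma adjusted p = 0.0179) and was higher in Co+Len@OVA+anti-PD1 than in Lenvatinib+anti-PD1 by 1.61 ± 0.25 (adjusted p = 0.002854). Flt4, the VEGF-C receptor of sinusoidal and lymphatic endothelium, was at 2.95 ± 0.590, 1.88 ± 0.123 and 3.47 ± 0.156 FPKM, and fell in Lenvatinib+anti-PD1 by 0.52 (adjusted p = 0.0226). Between the treatments 3 of the 14 were higher in Co+Len@OVA+anti-PD1 and 0 lower, the third being Meis2, a homeobox factor, with a log2 difference of 0.37 ± 0.10 (limma adjusted p = 0.02393). Over all genes tested, 17.3% were called higher in that comparison.

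Genes of continuous capillaries and growing vessels stood higher in the tumours in which Stab2 and Clec4g were lowest. Of 15 tested, 7 rose in Co+Len@OVA+anti-PD1 against Control (median log2 difference 1.17) and 8 were higher than in Lenvatinib+anti-PD1 (median 1.22). The shares called higher over all genes tested were 20.9% and 17.3%. Lenvatinib+anti-PD1 against Control had 0 calls in limma and a median of 0.00. Apln, a ligand made by tip cells of sprouting vessels, rose from 1.36 ± 0.584 to 6.47 ± 0.487 FPKM (log2 fold change 1.96 ± 0.28, limma adjusted p = 0.002043). Angpt2, an antagonist of Tie2 released by growing endothelium, was at 7.95 ± 0.896 FPKM in Co+Len@OVA+anti-PD1 against 1.37 ± 0.326 in Lenvatinib+anti-PD1 (2.18 ± 0.26, adjusted p = 0.0006781). The 5 genes tested of the lymphatic endothelial list were Prox1, Pdpn, Ccl21a, Fgl2 and Thy1, whose level in a tumour piece is not that of 1 cell type. Of these, 3 rose in Co+Len@OVA+anti-PD1 and 1 in Lenvatinib+anti-PD1, where 20.9% and 13.8% of all genes rose. Differences from Control were positive for 4 of the 5 in Co+Len@OVA+anti-PD1 (median 1.21) and for 1 in Lenvatinib+anti-PD1 (median -0.34). Prox1 had means of 5.85 ± 1.22 FPKM in Control, 4.48 ± 0.257 in Lenvatinib+anti-PD1 and 4.07 ± 0.901 in Co+Len@OVA+anti-PD1. Mmrn1, Reln and Nts of the same list were below the minimum. Their means were 0.0545, 0.0756 and 0.643 FPKM in Co+Len@OVA+anti-PD1 and 0.0499, 0.225 and 0.262 in Control. Ccl21a, a chemokine of lymphatic endothelium, rose in both, to 7.47 ± 5.23 and 12.5 ± 10.6 FPKM from 0.424 ± 0.255 (limma adjusted p = 0.02035 and 0.01368).

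Macrophage genes moved with several members. The 16 pan-macrophage genes summed to 414, 1630 and 1250 FPKM in Control, 595, 684 and 640 in Lenvatinib+anti-PD1 and 2580, 2200 and 2420 in Co+Len@OVA+anti-PD1, and 0 of them were at 0 in any library. In Co+Len@OVA+anti-PD1, 5 of the 16 rose against Control and 11 were higher than in Lenvatinib+anti-PD1, where 20.9% and 17.3% of all genes were called higher. In Lenvatinib+anti-PD1, 2 fell, Itgam and Cd14, where 9.87% of all genes fell. Control replicate 1 and the Lenvatinib+anti-PD1 libraries were the lowest 4 of the 9 in these sums, as they were for Mrc1. On a ratio to the geometric mean of this list Stab1 was at 0.134 ± 0.0526 in Control, 0.151 ± 0.0340 in Lenvatinib+anti-PD1 and 0.145 ± 0.0332 in Co+Len@OVA+anti-PD1, with all groups overlapping. In limma on log2 values less the list's mean, Clec4g, Lyve1, Oit3 and Gpr182 were called lower in Co+Len@OVA+anti-PD1 than in either other group, where 18% of genes against Control and 86.6% against Lenvatinib+anti-PD1 were called lower. These calls overstate the evidence for the reason given for the pan-endothelial list. On the ratio to the macrophage list, Stab2, Clec4g, Lyve1, Oit3 and Gpr182 stayed below every other library in the 3 Co+Len@OVA+anti-PD1 libraries. There, 49.4% of genes were below every Control library and 90% below every Lenvatinib+anti-PD1 library. The part of macrophages in the levels of Stab1, Mrc1, Lyve1 and Dnase1l3 was not tested.

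Kupffer cell genes, of the resident macrophages of the sinusoid, did not share 1 order. Of 9 tested, 4 rose and 2 fell in Co+Len@OVA+anti-PD1 against Control, where 20.9% of all genes rose and 12.7% fell. Clec4f, a lectin specific to Kupffer cells in mice, was at 3.18 ± 0.411 FPKM in Control, 8.06 ± 0.361 in Lenvatinib+anti-PD1 and 0.145 ± 0.0600 in Co+Len@OVA+anti-PD1, the same order as Clec4g. It rose in Lenvatinib+anti-PD1 (1.22 ± 0.12, limma adjusted p = 0.0004363) and fell in Co+Len@OVA+anti-PD1 (-2.51 ± 0.12, adjusted p = 2.181e-05). Marco went the other way, at 4.02 ± 0.626 FPKM in Control, 4.61 ± 0.288 in Lenvatinib+anti-PD1 and 23.4 ± 9.94 in Co+Len@OVA+anti-PD1. It rose in Co+Len@OVA+anti-PD1 by 2.315 ± 0.2895 (limma adjusted p = 0.001173). Mature hepatocyte genes were lowest in Co+Len@OVA+anti-PD1, where 12.7% of all genes fell against Control. All 20 fell in Co+Len@OVA+anti-PD1 against Control, their sums being 7060, 3140 and 4550 FPKM in Control, 5010, 4790 and 5120 in Lenvatinib+anti-PD1 and 990, 1330 and 1190 in Co+Len@OVA+anti-PD1. Hepatocyte sums and the group means of Stab2, Clec4g, Lyve1, Oit3 and Gpr182 were all lowest in Co+Len@OVA+anti-PD1. Control replicate 1 had the highest hepatocyte sum of the 9 libraries and the lowest Control level of all 5 members. Whether these hepatocyte transcripts came from liver tissue or from the hepatoma cells cannot be told in pieces of whole tumour. The part of either in the member results was not tested.

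Markers of other cell types also differed between libraries. Skeletal muscle genes summed to 1.29, 2.34 and 48.3 FPKM in Control, 34.8, 5020 and 2000 in Lenvatinib+anti-PD1 and 43.8, 52.2 and 50.8 in Co+Len@OVA+anti-PD1, and all 8 rose in Lenvatinib+anti-PD1. Of 12 stellate cell and fibroblast genes tested, 2 rose and 2 fell in Co+Len@OVA+anti-PD1 and 1 rose and 1 fell in Lenvatinib+anti-PD1. All 5 erythroid genes tested rose in Co+Len@OVA+anti-PD1. Adipocyte genes summed to 4.17, 0.977 and 10.1 FPKM in Control, 44.7, 554 and 250 in Lenvatinib+anti-PD1 and 210, 35.9 and 120 in Co+Len@OVA+anti-PD1. They rose for 2 of 7 in each treated group, and dendritic cell genes for 2 of 6 in Co+Len@OVA+anti-PD1 and 1 of 6 in Lenvatinib+anti-PD1. Of 14 genes of alternatively activated macrophages, 5 rose and 2 fell in Co+Len@OVA+anti-PD1, and 1 rose and 3 fell in Lenvatinib+anti-PD1. Over all genes tested, 20.9% rose and 12.7% fell in Co+Len@OVA+anti-PD1 against Control, and 13.8% rose and 9.87% fell in Lenvatinib+anti-PD1. The part of these cell types in the member results was not tested.

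**Figure D4:**
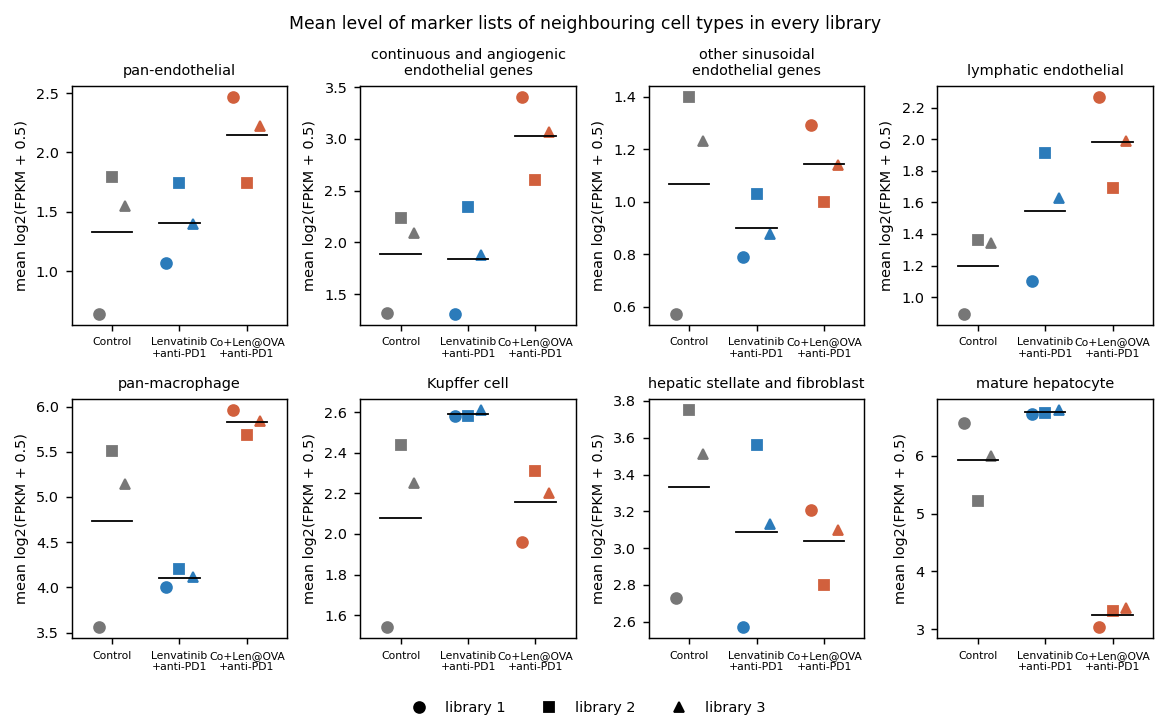
Mean log2(FPKM + 0.5) of 8 marker lists in each of the 9 libraries, by group; circles, squares and triangles are libraries 1, 2 and 3, and the bar is the mean of 3. Pan-endothelial, continuous endothelial and pan-macrophage lists are highest on average and the hepatocyte list lowest in Co+Len@OVA+anti-PD1, and Control replicate 1 is the lowest Control library in each list except mature hepatocyte.

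The genes closest in pattern to each member were sought among 3304 genes that varied over the 9 libraries, by the root mean square difference of centred log2(FPKM + 0.5). The nearest to Oit3 was Gpr182 and the nearest to Gpr182 was Oit3, at 0.191, so that these members were each other's closest match. Nearest to Clec4g was Vsig4, a complement receptor of Kupffer cells, at 0.179 where Clec4g itself had an SD of 0.775. Trim36 at 0.239 and Gm38563 at 0.245, which are not in the Kupffer cell list, came next. Nearest to Mrc1 were Tlr7, Vcam1 and Csf1r (0.151 to 0.216, SD of Mrc1 1.06), of which Tlr7 and Csf1r are receptors of macrophages. Dnase1l3 was closest to Slamf8 at 0.122 and Scimp at 0.132, both made by myeloid cells, and then to Calhm6 at 0.151. Stab1 was closest to Kbtbd11 at 0.120, to Cpa3, a mast cell protease, at 0.132 and to Emcn, an endothelial sialomucin, at 0.157. Nearest to Lyve1 were Prelp, Smoc2 and Rerg at 0.285 to 0.316, against its own SD of 0.928. For Stab2 the nearest were Prx, Foxa1 and Agtr1a at 0.204 to 0.214, against its own SD of 0.570. These are descriptions over 9 libraries that share 3 groups.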

How the data were processed

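RNA was measured by poly(A) RNA sequencing of 9 tumours with strand-marked libraries and paired reads of 150 bases, per the labels' protocols. Tools named in the submitters' processing notes are fastp, StringTie and edgeR, with no version. The aligner, like the build, is not given in the sources used here. The authors deposited FPKM per gene, presented as raw counts, and these values were not rescaled.

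limma 3.58.1 in R 4.3.3 was fitted to log2(FPKM + 0.5) of all 9 libraries, 1 mean per group and 6 residual degrees of freedom, with a variance trend and robust moderation, over 15353 genes whose mean reached 0.5 FPKM. The step was tested on simulated data with independent libraries. That test cannot show how p-values behave where a library is not independent of the others. Values were summarised in Python 3.11.15 with pandas 2.3.3. At the best-fitting depth only 21.1% to 25.8% of low values lay within 0.05 of a whole fragment, so counting intervals are not given. Fragments per 1000000 mapped are FPKM times the longest GENCODE transcript of the gene, which is an upper figure.

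The 14 marker lists, 179 genes with the members among them, were chosen with earlier results of these data known. Genes named outside the members are the 2 with the largest passing change and the highest-expressed gene of each list and the 3 closest in pattern to each member; of these a selection is named. Meis2 and the Lenvatinib+anti-PD1 values of Gata4 and Flt4 were added after their values were seen. Alternatives were other pseudocounts, minimum levels, scalings and variance models, fits of 2 groups, a replicate block, libraries 1 and 2 alone, and each library left out; the tests of Stab2 with libraries left out were added after its values were seen.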

Additional observations from a re-analysis of the deposited data

How the results depend on the processing

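Of 528 recalculated member values, 460 kept their direction and call or, for Stab2, stayed within its spread, 13 lost and 32 gained a call, 15 changed sign and 8 values of Stab2 moved by more than its spread. The numbers of members passing, 1, 0 and 2 (the nanocluster group against Control, Lenvatinib+anti-PD1 against Control, and the treatments against each other), did not change with either pseudocount, the other 3 scalings or the plain variance model. Leaving out 1 library at a time gave 0 to 5, 0 to 3 and 2 to 6. Stab1 lost its call against Control without Control replicate 1 or 3, and without Co+Len@OVA+anti-PD1 replicate 1 or 3 (limma adjusted p 0.05808, 0.05854, 0.07966 and 0.07939), and without a minimum level (0.05169). Fits of the 2 groups compared gave 0, 0 and 6. Libraries 1 and 2 alone gave 0, 0 and 0. Values per pan-endothelial level gave 4, 1 (Mrc1, -1.36, adjusted p = 0.01047) and 4, and per pan-macrophage level 4, 0 and 4. Limma p-values on both of these scales overstate the evidence, because every gene carries the error of the same list level. A minimum of 1 FPKM, which leaves 4 members and not Clec4g, gave 1, 0 and 1. Beside those counts of 0 the members with an unadjusted p under 0.05 numbered 0 to 4.

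The labels do not say whether samples with the same replicate number share more than the number. Correlations of their deviations from the group means were -0.248 to 0.0785 over 9 pairs. Pairs with different numbers ran from -0.187 to 0.244. Deviations within a group of 3 sum to 0, so these correlations cannot decide the question. With the replicate block 0, 0 and 2 members passed, Stab1 against Control having an adjusted p of 0.05615.

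Signs changed as follows, and the cause was not tested. Leaving out each library in turn, the differences from Control ranged from -0.56 to 0.81 for Mrc1 in Co+Len@OVA+anti-PD1 and, in Lenvatinib+anti-PD1, from -0.52 to 0.37 for Oit3, from -0.55 to 0.71 for Dnase1l3 and from -0.25 to 0.51 for Gpr182. Mrc1 in Co+Len@OVA+anti-PD1 against Control was -0.54 per pan-endothelial level and -0.82 per pan-macrophage level. In Lenvatinib+anti-PD1 against Control, Oit3 was 0.14 with a pseudocount of 0.1, 0.62 per pan-macrophage level and 0.10 from libraries 1 and 2. Stab1 there was 0.26 per pan-macrophage level. The negative ends for Dnase1l3, Gpr182 and Mrc1 came without Control replicate 1. Between the treatments, per pan-macrophage level, Stab1 was -0.17, Dnase1l3 -0.54 and Mrc1 -0.17. Median log2 differences over all genes on these scales were -0.68, -0.03 and -0.66 per pan-endothelial and -0.95, 0.68 and -1.65 per pan-macrophage level. Depth limits Stab2, Clec4g, Oit3 and Gpr182 most, which lie near or under 1 FPKM.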
